A study of Homo sapiens with 12 samples.

Results

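Cells make cholesterol and fatty acids from the same building block, acetyl-CoA, and the genes of both routes were followed here across 2 pancreatic cancer cell lines and 2 oxygen conditions. The set holds 34 genes, chosen by their known place in sterol or fatty acid synthesis and matched by current symbol, and 30 of them were measured among the 19775 genes of the arrays. Of the sterol enzymes, all 8 genes of the mevalonate and isoprenoid steps and 9 of the 11 genes from squalene to cholesterol were measured. All 6 genes of sterol sensing and transport and 7 of 9 genes of fatty acid synthesis were measured too. FDFT1, CYP51A1, FADS1 and ACSL3 had no probe set annotated with that gene alone and were not analysed here.

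FG and L3.6pl are human pancreatic carcinoma lines that differ in metastatic potential, per the series title, and L3.6pl is known as a variant selected in mice. Each line was grown in normoxia, meaning left untreated, or spent its last 24 h at 1% oxygen, called hypoxia here, with 3 arrays in each of the 4 groups and 12 in all. All cultures were started from frozen cells and not passaged, typically grew for 9 days, and had serum in the medium, which carries sterols and fatty acids of its own. The labels do not say whether numbered replicates came from separate cultures, so p-values measure only the spread between arrays, which may be technical, and each cell type is represented by a single line.

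Sterol synthesis joins acetyl units into mevalonate, builds isoprenoids from it, joins these to squalene, and turns squalene through a chain of demethylations and reductions into cholesterol. Several of these steps, among them the epoxidation of squalene and the removal of methyl groups, use molecular oxygen. Fatty acid synthesis starts from cytosolic acetyl-CoA and adds carbon pairs, after which elongases and desaturases shape the chain, and desaturases also need oxygen. Both routes are under sterol regulatory element-binding proteins, which SCAP escorts out of the endoplasmic reticulum when sterols are low and which INSIG1 and INSIG2 hold back when sterols are high.

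Promoter sequences of 4 genes are shown as background, since INSIG2 moved against the rest in the results below. Whether their letters bear on that result was not tested. INSIG2 and INSIG1 are the paired retention factors, SREBF2 encodes the sterol-directed member of the regulators, and FDPS, the synthase of farnesyl diphosphate, was among the enzymes that fell in both lines. Each sequence gives the 250 bases before the annotated start of transcription, 5′ to 3′ on the plus strand, from RefSeq on GRCh38.p14. The windows are chr2:118088221-118088470 for INSIG2, chr7:155297628-155297877 for INSIG1, chr22:41832855-41833104 for SREBF2 and chr1:155308616-155308865 for FDPS. Capitals mark 3 motifs on either strand: the letters TCACNCCAC of a sterol regulatory element, CCAAT of an NF-Y box, and ACGTG of a hypoxia response element.
INSIG2: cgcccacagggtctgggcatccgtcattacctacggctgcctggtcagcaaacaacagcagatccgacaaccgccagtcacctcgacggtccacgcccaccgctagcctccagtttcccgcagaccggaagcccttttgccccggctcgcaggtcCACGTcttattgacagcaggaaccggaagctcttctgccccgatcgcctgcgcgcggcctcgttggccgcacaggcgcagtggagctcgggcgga
INSIG1: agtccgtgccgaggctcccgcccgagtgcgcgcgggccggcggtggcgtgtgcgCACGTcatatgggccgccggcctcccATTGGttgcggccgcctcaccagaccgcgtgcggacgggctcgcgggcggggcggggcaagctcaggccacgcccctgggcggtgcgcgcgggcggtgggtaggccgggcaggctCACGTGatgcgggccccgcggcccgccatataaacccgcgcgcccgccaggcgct
SREBF2: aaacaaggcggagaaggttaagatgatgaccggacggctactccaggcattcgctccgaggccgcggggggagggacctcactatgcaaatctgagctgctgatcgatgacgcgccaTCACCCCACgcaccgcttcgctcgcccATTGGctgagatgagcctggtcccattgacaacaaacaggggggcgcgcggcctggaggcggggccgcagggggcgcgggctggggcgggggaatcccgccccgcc
FDPS: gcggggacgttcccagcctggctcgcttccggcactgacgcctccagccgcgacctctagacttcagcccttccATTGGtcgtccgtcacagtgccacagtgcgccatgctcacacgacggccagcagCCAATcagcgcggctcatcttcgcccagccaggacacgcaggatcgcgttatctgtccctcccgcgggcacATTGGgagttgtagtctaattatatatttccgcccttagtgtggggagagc
In INSIG2 the window held 1 ACGTG, starting 95 bases before the start site, and no CCAAT. INSIG1 held ACGTG at 196 bases and, on both strands of an E-box (CACGTG), again near the start site, with 1 CCAAT between them. SREBF2 held the sterol element letters 133 bases before the start, and FDPS held CCAAT at 176, 122 and 51 bases.

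These letters were counted in the windows of all genes for comparison. The sequence table held 30 of the 34 genes, 10 of them with more than 1 window, and 27305 genes in all. It lacked ACAT2, FASN, SQLE and FDFT1 and held CYP51A1, FADS1 and ACSL3, so these are not the 30 genes measured on the arrays. At least 1 CCAAT was present in 22 of the 30 genes (73.3%) against 37.0% of all genes, and in 8 of 9 genes from squalene to cholesterol. The Sp1 letters GGGCGG were present in 29 of 30 genes (96.7%) against 46.2% of all. The sterol element letters were in 1 of 30 genes against 1.09% of all, so this spelling was rare in these windows among all genes too. ACGTG, which also lies within the E-box, was in 8 of 30 genes (26.7%) against 21.7% of all, and 4 of those 8 were among the 6 sensing and transport genes. Counted per window instead of per gene, the shares were 60.5% against 32.0% for CCAAT. They were 88.4% against 42.6% for GGGCGG and 23.3% against 18.5% for ACGTG. A match is a description of letters and not of a bound site.

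Some arrays stood apart and touch the results that follow. The 14 hypoxia target genes used to check the labels were all called higher in hypoxia in both lines. Among all genes this held for 4.24% in FG and 3.89% in L3.6pl. The mean log2 intensity of 11 epithelial markers lay between 10.3 and 11.1 on every array, and that of 12 stromal, endothelial and blood cell markers between 5.52 and 6.09, with 7 of the 12 below the median gene and COL1A1 the highest at 9.72. The summed intensity of the latter 12 ran from 2572 to 4894 in FG normoxia, 3933 to 4462 in FG hypoxia, 898 to 1173 in L3.6pl normoxia and 1253 to 1822 in L3.6pl hypoxia. The 3′ excess of the ACTB control probe sets was largest on L3.6pl hypoxia replicate 3 (1.34 on the log2 scale) and on the normoxia replicates 1 of FG (1.14) and L3.6pl (0.874), against 0.34 to 0.714 on the others. Both normoxia replicates 1 also had the lowest mean of 26 proliferation genes within their groups, 8.20 against 10.2 and 10.3 in FG and 9.44 against 10.4 and 10.2 in L3.6pl. In L3.6pl the proliferation genes averaged 8.75 to 9.34 in hypoxia against 9.44 to 10.4 in normoxia, without overlap. Their median difference was -0.84, and 2 of 26 were called lower, against 2.97% of all genes. In FG the proliferation genes averaged 9.03 to 9.68 in hypoxia, with a median difference of -0.10 over all arrays. These values lay within the range of normoxia only because of FG normoxia replicate 1, at 8.20. FG normoxia replicates 2 and 3, at 10.2 and 10.3, lay above all FG hypoxia arrays. The part of these differences in the sterol and fatty acid results was not tested beyond the values without these arrays. In these bulk samples, fewer cells of a kind and less RNA per cell cannot be told apart.

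Averaged over each branch, the synthesis genes were lower in hypoxia than in normoxia in both lines. They were also lower in L3.6pl than in FG within either condition. In L3.6pl the proliferation genes were lower in hypoxia too, as given above. In FG the proliferation genes were lower in hypoxia than in normoxia replicates 2 and 3. For this summary each gene's log2 intensity was centred on its mean over the 12 arrays, and the centred values were averaged per array. The 17 sterol enzymes averaged 1.21, 0.54 and 0.77 in FG normoxia, replicates 1 to 3, and -0.21, -0.42 and 0.24 in FG hypoxia. In L3.6pl they averaged 0.59, -0.11 and -0.02 in normoxia and -0.98, -1.13 and -0.46 in hypoxia. Within each line, all hypoxia arrays lay below all normoxia arrays, while FG hypoxia and L3.6pl normoxia overlapped. The 7 fatty acid genes were likewise lower on all hypoxia arrays of each line, but FG hypoxia lay below L3.6pl normoxia. They ran from 0.33 to 1.57 in FG normoxia, -0.49 to -0.21 in FG hypoxia, -0.06 to 1.05 in L3.6pl normoxia and -0.96 to -0.64 in L3.6pl hypoxia. The 6 sensing and transport genes overlapped between the conditions in FG. In each branch the highest array of either normoxia group was replicate 1.

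**Figure D1:**
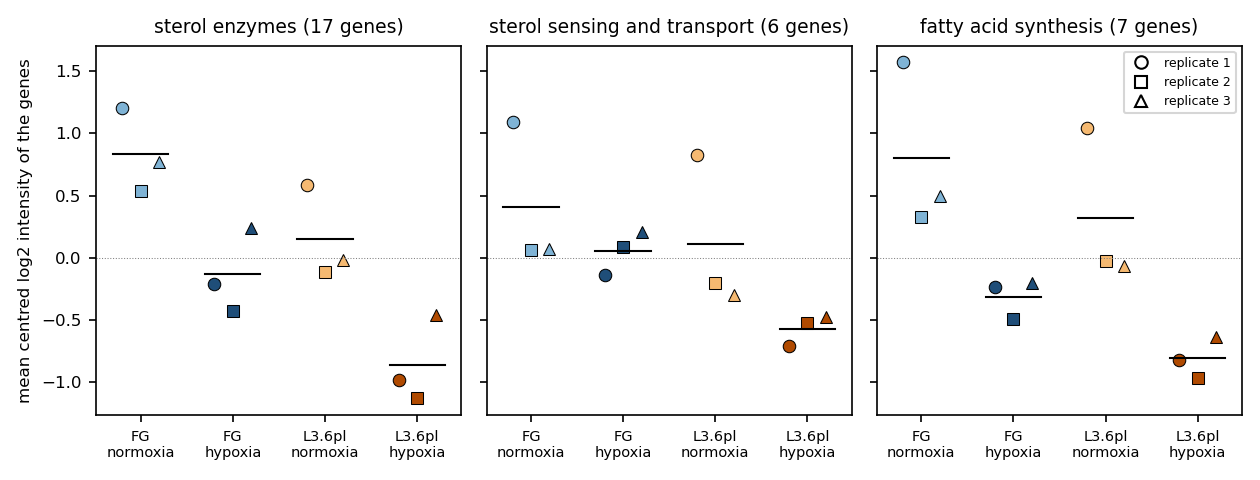
Mean centred log2 intensity of the 17 sterol enzymes, the 6 sensing and transport genes and the 7 fatty acid genes on the y axis, for each of the 12 arrays grouped on the x axis by line and oxygen. Symbols give the replicate number and bars the mean of 3 arrays. In the sterol and fatty acid panels every hypoxia array lies below every normoxia array of the same line, and replicate 1 is the highest of each normoxia group.

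The first comparison asked which of these genes changed in hypoxia within each line. A gene was called when limma's Benjamini-Hochberg adjusted p over all 19775 genes was below 0.05. In FG, 9 of the 30 genes fell and 1, INSIG2, rose, against 6.47% of all genes called lower and 4.24% called higher. In L3.6pl, 9 fell and INSIG2 again rose, against 2.97% and 3.89% of all genes. In all, 29 of 30 differences were negative in FG and 28 in L3.6pl, with medians of -0.937 and -1.005 against -0.03 and -0.02 over all genes. Called lower in both lines were 7 genes: ACAT2, IDI1, FDPS, HSD17B7, EBP, ACLY and ELOVL6. The 2 comparisons share no arrays, but their p-values use the same estimate of spread, taken from the arrays of both lines. Leaving out an array of either line therefore leaves the difference in the other line unchanged and moves only the spread. A call gained in that way, here and below, is not read as support for the difference. Same-numbered arrays of the lines also deviated together, and normoxia replicate 1 was high for most of the set in both. The 2 lists of calls are therefore not independent. TM7SF2 and NSDHL passed in FG, and SQLE and ACACA in L3.6pl.

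**Figure D2:**
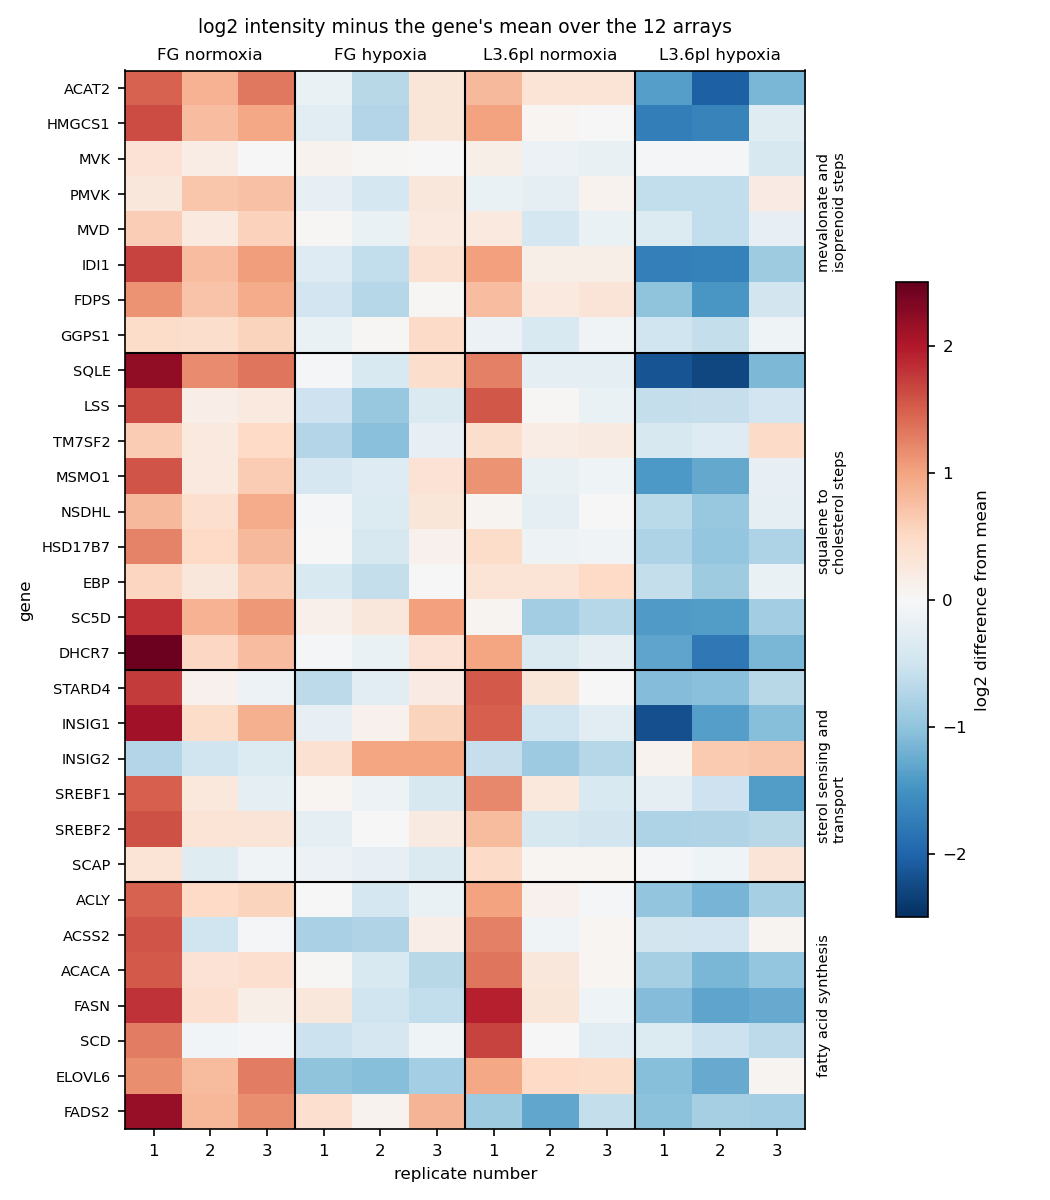
Heat map of the log2 intensity of 30 genes (rows, by branch) on 12 arrays (columns, by group and replicate number), each minus the gene's mean over the arrays. Red is higher and blue lower. Nearly all rows turn from red in FG normoxia to blue in L3.6pl hypoxia, the INSIG2 row runs the other way between the oxygen conditions, and the replicate 1 column is the reddest of each normoxia block.

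In the mevalonate and isoprenoid steps, 3 of 8 genes fell in each line, with a branch median of -0.998 in FG and -0.842 in L3.6pl. ACAT2, the cytosolic thiolase that joins the first acetyl units, had log2 intensities of 11.1, 10.5 and 11.0 in FG normoxia and 9.50, 8.98 and 9.97 in FG hypoxia. In L3.6pl the values were 10.5, 10.0 and 10.0 in normoxia and 8.29, 7.63 and 8.52 in hypoxia. The groups did not overlap in either line. The difference was -1.41 ± 0.289 (limma standard error, n = 3 against 3; limma adjusted p = 0.0112), or 2.66-fold lower, in FG. It was -2.02 ± 0.289 (limma adjusted p = 0.00269), or 4.06-fold lower, in L3.6pl. The FG call ended without FG hypoxia replicate 2 (limma adjusted p = 0.0508), and the L3.6pl call was kept without any single array.

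FDPS, which makes farnesyl diphosphate for sterols and for protein prenylation, had log2 intensities of 11.7, 11.3 and 11.5 in FG normoxia and 10.1, 9.91 and 10.6 in FG hypoxia. In L3.6pl they were 11.4, 10.9 and 10.9 in normoxia and 9.60, 9.16 and 10.1 in hypoxia. All hypoxia arrays were below all normoxia arrays in both lines. The fall was 2.47-fold in FG (limma adjusted p = 0.0097) and 2.68-fold in L3.6pl (limma adjusted p = 0.00926), and both calls were kept without any single array. FDPS is the gene whose 3 CCAAT boxes are shown above.

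IDI1, the isomerase that interconverts the activated isoprenoid units, fell 2.54-fold in FG (limma adjusted p = 0.0335) and 3.65-fold in L3.6pl (limma adjusted p = 0.0107). Its FG call ended without any of FG hypoxia replicates 1 or 2 or FG normoxia replicates 1 or 3 (limma adjusted p = 0.0675 to 0.137), and its L3.6pl call without L3.6pl hypoxia replicate 2 (0.0536). With the mean of its 4 probe sets the L3.6pl difference was -0.94 and passed (0.0301). HMGCS1, which makes HMG-CoA ahead of the rate-limiting reduction, had no overlap between the conditions in either line but did not pass. Its differences were -1.35 ± 0.43 in FG (limma adjusted p = 0.0731) and -1.59 ± 0.43 in L3.6pl (limma adjusted p = 0.0514), and L3.6pl hypoxia replicate 3, at 7.93 against 6.50 and 6.55, was its highest hypoxia array there. Without that array the limma adjusted p was 0.0232 in FG and 0.00637 in L3.6pl, and without FG normoxia replicate 1 it was 0.0391 in L3.6pl. With the mean of its 2 probe sets HMGCS1 had weaker differences of -0.90 in FG and -1.28 in L3.6pl, and passed in neither (limma adjusted p = 0.175 and 0.0715). The mevalonate kinase MVK had differences of -0.14 ± 0.136 and -0.09 ± 0.136 on the probe set used, but with the mean of its 4 probe sets it passed in both lines (-0.46 and -0.36; limma adjusted p = 0.00979 and 0.0417). The probe set used for MVK was the brightest, at a mean log2 intensity of 8.35 against 7.09, 6.22 and 5.12 for the others. The decarboxylase MVD, the phosphomevalonate kinase PMVK and the geranylgeranyl diphosphate synthase GGPS1 did not pass in either line, with differences from -0.69 to -0.19. PMVK passed in FG without L3.6pl hypoxia replicate 3 (limma adjusted p = 0.0341).

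Between squalene and cholesterol, 4 of 9 genes fell in FG and 3 of 9 in L3.6pl, with branch medians of -0.95 and -0.94, and all 9 differences were negative in both lines. SQLE, the squalene epoxidase and an oxygen-using step, had log2 intensities of 11.4, 10.4 and 10.5 in FG normoxia and 9.13, 8.79 and 9.61 in FG hypoxia. In L3.6pl it had 10.4, 8.96 and 8.95 in normoxia and 7.01, 6.91 and 8.04 in hypoxia. The conditions did not overlap in either line, and replicate 1 stood above the other normoxia arrays in both. It fell 4.37-fold in L3.6pl (-2.13 ± 0.452; limma adjusted p = 0.0181), a call that ended without L3.6pl hypoxia replicate 1 or 2 (0.0676 and 0.0843). In FG the difference of -1.57 ± 0.452 narrowly missed the threshold (limma adjusted p = 0.0501). It passed without L3.6pl hypoxia replicate 3 or L3.6pl normoxia replicate 1 (0.0297 and 0.0211), omissions that change only the shared spread. With the mean of its 4 probe sets SQLE narrowly passed in FG (-1.21; limma adjusted p = 0.0493), so that call depends on the choice of probe set.

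EBP, the sterol isomerase of the late steps, fell in both lines, by 0.81 on the log2 scale in FG and by 0.94 in L3.6pl (limma standard error 0.193 for each; limma adjusted p = 0.0223 and 0.0158). Its FG call ended without FG hypoxia replicate 1 or 2 or FG normoxia replicate 1 or 3 (limma adjusted p = 0.05 to 0.0981). Its L3.6pl call ended without L3.6pl hypoxia replicate 1 or 2 or L3.6pl normoxia replicate 2 or 3 (limma adjusted p = 0.0554 to 0.0685). With the mean of all 4 of its probe sets EBP did not pass in either line (-0.45 in FG and -0.54 in L3.6pl; limma adjusted p = 0.0872 and 0.0572). HSD17B7, a keto-reductase of the demethylation complex, fell by 0.95 in FG and by 0.93 in L3.6pl (limma adjusted p = 0.0172 and 0.0255). The FG call ended without FG hypoxia replicate 2 (0.08), and the L3.6pl call without L3.6pl hypoxia replicate 1 or 2 or any L3.6pl normoxia replicate (0.0523 to 0.103). HSD17B7 and IDI1 were read from probe sets of the platform's cross-hybridising class, which makes both uncertain.

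TM7SF2, a sterol reductase, was lower in every FG hypoxia array (6.99, 6.68 and 7.51) than in FG normoxia (8.36, 7.95 and 8.22), and fell 2.17-fold (limma adjusted p = 0.0176). That call ended without FG hypoxia replicate 1 or 2 or FG normoxia replicate 3 (0.052 to 0.0809). In L3.6pl its groups overlapped, since hypoxia replicate 3 at 8.19 lay above all 3 normoxia arrays (8.15, 7.89 and 7.94), and the difference was -0.36 ± 0.252. NSDHL, the decarboxylating dehydrogenase of the same complex as HSD17B7, fell by 0.75 in FG (limma adjusted p = 0.0458). Its call ended with any of 8 arrays left out, namely FG hypoxia 1 and 2, FG normoxia 1 and 3, L3.6pl hypoxia 1 and the 3 L3.6pl normoxia arrays (0.0586 to 0.177). It also ended with the mean of its 2 probe sets (0.0911) and with an intensity trend and robust moderation (0.0556). In L3.6pl its difference of -0.56 ± 0.212 passed only without L3.6pl hypoxia replicate 3 (0.0433).

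The remaining genes of these steps did not pass with all arrays. LSS, the lanosterol synthase, had 10.6, 9.18 and 9.25 in FG normoxia and 8.48, 8.06 and 8.64 in FG hypoxia, so its conditions did not overlap, and its limma adjusted p was 0.105. DHCR7, the last reductase before cholesterol, had 11.8, 9.88 and 10.1 in FG normoxia, and 9.34, 9.20 and 9.72 in FG hypoxia. In L3.6pl DHCR7 had 10.4, 9.00 and 9.12 against 8.04, 7.57 and 8.22. Replicate 1 set the spread of both genes in normoxia, with standard deviations of 0.824 and 1.05 in FG. The methyl oxidase MSMO1 and the desaturase SC5D, both oxygen-using, had differences of -0.94 and -0.78 in FG and -1.25 and -0.72 in L3.6pl. With 1 array left out, LSS passed in FG without L3.6pl normoxia replicate 1 (limma adjusted p = 0.0381). That omission changes only the shared spread and leaves the FG difference of LSS at -1.30. In L3.6pl, MSMO1 passed without hypoxia replicate 3 (0.0438) and DHCR7 without FG normoxia replicate 1 (0.016). Without that FG array the FG difference of DHCR7 moved from -1.19 to -0.58.

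**Figure D3:**
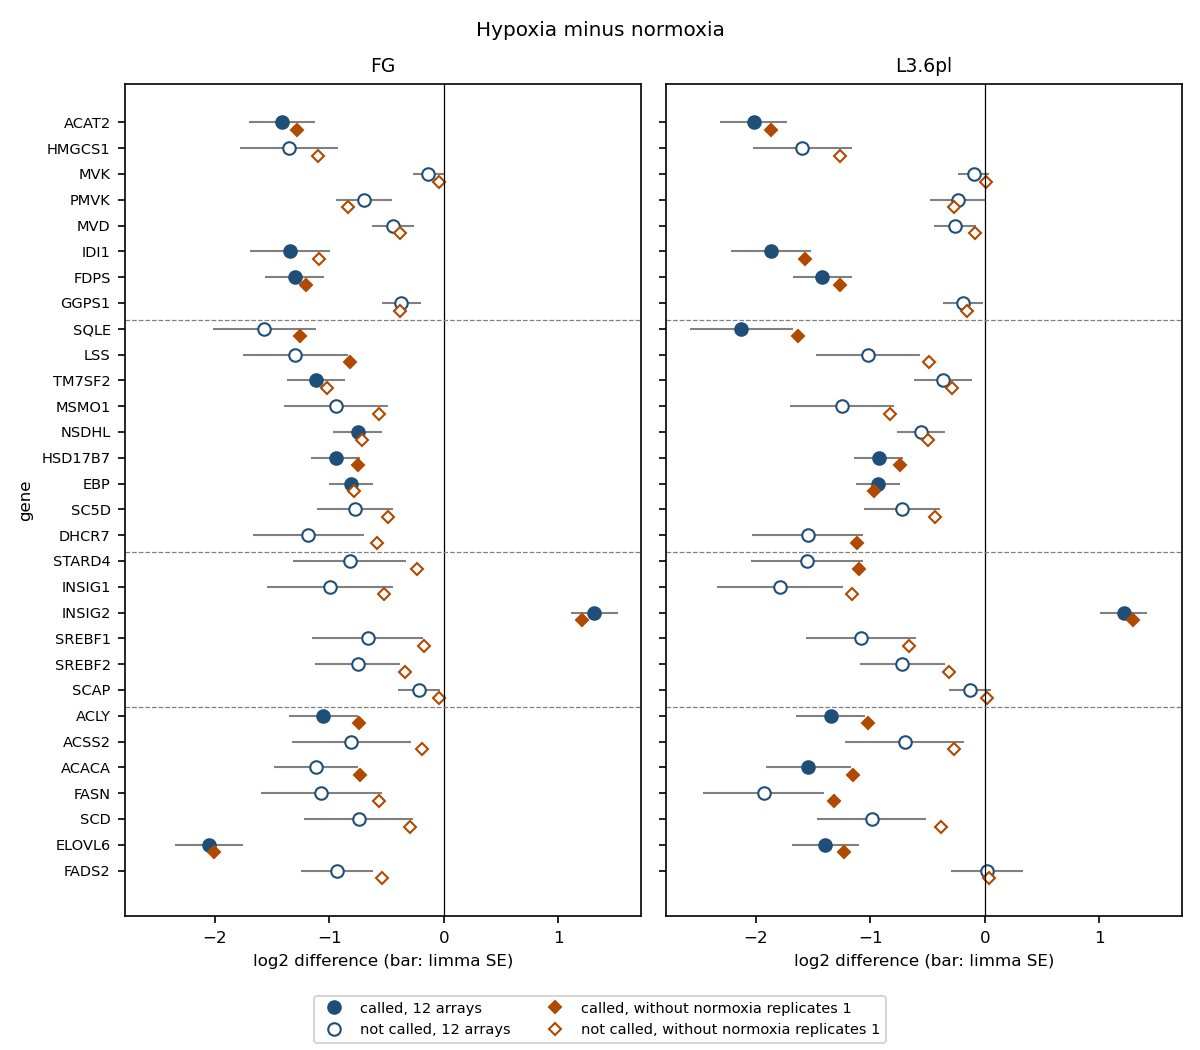
Log2 difference of hypoxia minus normoxia (x axis) for each of 30 genes (y axis, dashed lines between branches) in FG and in L3.6pl. Circles use all 12 arrays, with limma's standard error, diamonds leave out both normoxia replicates 1, and filled symbols passed an adjusted p below 0.05. INSIG2 is the only filled symbol to the right of 0 in either panel, and most diamonds lie nearer to 0 than their circles.

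Among the sensing and transport genes, INSIG2 rose in both lines while none of the other 5 passed. INSIG2 had log2 intensities of 8.22, 8.45 and 8.61 in FG normoxia and 9.33, 9.94 and 9.94 in FG hypoxia. In L3.6pl it had 8.38, 8.04 and 8.24 in normoxia and 9.05, 9.62 and 9.64 in hypoxia. Every hypoxia array of either line lay above every normoxia array of both. The rise was 2.49-fold in FG (1.32 ± 0.205; limma adjusted p = 0.00297) and 2.32-fold in L3.6pl (1.22 ± 0.205; limma adjusted p = 0.00645), and both calls were kept without any single array. A lack of overlap with all hypoxia arrays higher was found for 10.9% of all genes in FG and 11.5% in L3.6pl.

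INSIG1, the other retention factor, ran the other way without passing. Its values were 10.4, 8.73 and 9.16 in FG normoxia and 8.07, 8.38 and 8.82 in FG hypoxia, which overlap. In L3.6pl they were 9.77, 7.77 and 7.99 in normoxia and 6.06, 6.89 and 7.20 in hypoxia, without overlap. The differences were -0.99 ± 0.552 (limma adjusted p = 0.326) and -1.79 ± 0.552 (limma adjusted p = 0.0828), and the latter passed without FG normoxia replicate 1 (0.0458). Without L3.6pl normoxia replicate 1 the L3.6pl difference was -1.16, and with the mean of its 3 probe sets the FG difference was -0.36. The sterol carrier STARD4 had -0.82 in FG and -1.55 in L3.6pl, where it passed without FG normoxia replicate 1 (limma adjusted p = 0.0221). The regulators SREBF1 and SREBF2 had differences of -0.66 and -0.75 in FG and -1.08 and -0.72 in L3.6pl, with standard errors of 0.483 for SREBF1 and 0.37 for SREBF2. The escort SCAP was nearly level at -0.22 ± 0.182 and -0.13 ± 0.182. None of these 5 was called lower by limma in either line, and at an unadjusted p below 0.05 the counts were 0 in FG and 3 in L3.6pl. The share of all genes at that unadjusted p is not given here, so these counts are not read as a result.

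**Figure D4:**
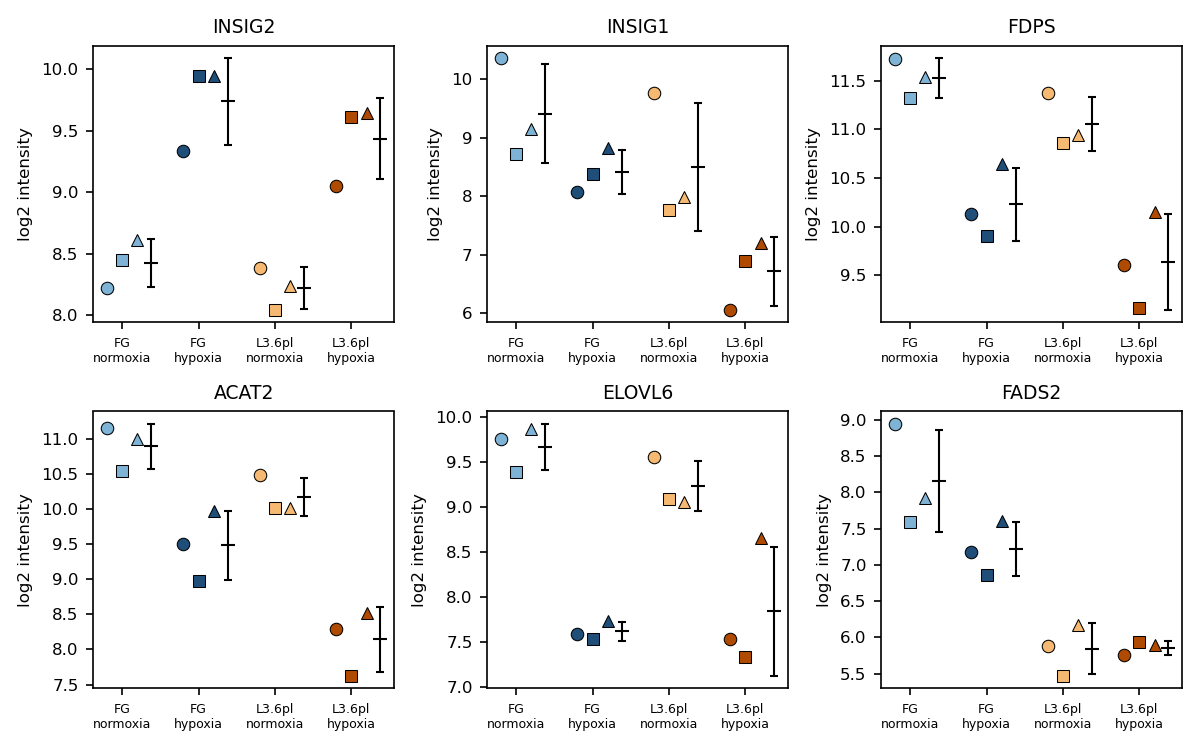
Log2 intensity (y axis) of INSIG2, INSIG1, FDPS, ACAT2, ELOVL6 and FADS2 on each array, by line and oxygen (x axis). Circles, squares and triangles are replicates 1, 2 and 3, and the bar beside each group is the mean ± SD of 3 arrays. INSIG2 is higher in all hypoxia arrays, FDPS, ACAT2 and ELOVL6 are lower in all hypoxia arrays of their line, and FADS2 separates the lines.

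In the fatty acid branch, 2 of 7 genes fell in FG (ACLY and ELOVL6) and 3 of 7 in L3.6pl (these and ACACA), with branch medians of -1.05 and -1.35. ELOVL6, the elongase of saturated 16-carbon chains, had the most negative difference of the set in FG. Its log2 intensities were 9.75, 9.39 and 9.87 in FG normoxia and 7.58, 7.54 and 7.74 in FG hypoxia, a 4.15-fold fall (-2.05 ± 0.296; limma adjusted p = 0.00198) that was kept without any single array. In L3.6pl they were 9.56, 9.09 and 9.06 in normoxia and 7.54, 7.33 and 8.66 in hypoxia, where replicate 3 lay well above the other hypoxia arrays. The fall there was 2.63-fold (limma adjusted p = 0.0182), and the call ended without L3.6pl hypoxia replicate 1 or 2 or L3.6pl normoxia replicate 1 or 2 (0.0594 to 0.0775).

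ACLY, which releases acetyl-CoA from citrate for both routes, had 12.0, 11.1 and 11.1 in FG normoxia and 10.5, 10.1 and 10.4 in FG hypoxia. In L3.6pl it had 11.6, 10.7 and 10.5 in normoxia and 9.58, 9.39 and 9.73 in hypoxia. No hypoxia array reached the normoxia arrays of its line. It fell 2.07-fold in FG (limma adjusted p = 0.0491) and 2.54-fold in L3.6pl (limma adjusted p = 0.0235). The FG call ended with any of 10 arrays left out, all but L3.6pl hypoxia replicate 3 and L3.6pl normoxia replicate 1 (0.0524 to 0.172), and with cyclic loess (0.0862) or median centring (0.0536). The L3.6pl call ended without L3.6pl hypoxia replicate 1 or 2 or L3.6pl normoxia replicate 1 or 2 (0.0594 to 0.0976).

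ACACA, the carboxylase that commits carbon to fatty acids, fell 2.91-fold in L3.6pl (-1.54 ± 0.368; limma adjusted p = 0.0308). That call ended without FG hypoxia 2, L3.6pl hypoxia 1 or 2 or L3.6pl normoxia 1 or 2 (0.0515 to 0.115). Its FG difference of -1.11 ± 0.368 did not pass (limma adjusted p = 0.0835) and passed without L3.6pl normoxia replicate 1 (0.0414). FASN, the fatty acid synthase, had 10.8, 9.17 and 8.78 in L3.6pl normoxia and 7.80, 7.56 and 7.61 in hypoxia, a difference of -1.93 ± 0.528 that just missed the threshold (limma adjusted p = 0.0541). It passed without FG normoxia replicate 1 or L3.6pl normoxia replicate 3 (0.0231 and 0.0495). The acetyl-CoA synthetase ACSS2 and the stearoyl-CoA desaturase SCD did not pass in either line, with differences between -0.99 and -0.70. Without both normoxia replicates 1 these were -0.19 in FG and -0.27 in L3.6pl for ACSS2, and -0.30 and -0.38 for SCD. FASN in L3.6pl was -1.32 without L3.6pl normoxia replicate 1 (limma adjusted p = 0.119). FADS2, the delta-6 desaturase, had -0.94 ± 0.316 in FG, which passed without FG normoxia replicate 2 (limma adjusted p = 0.0491), and 0.02 ± 0.316 in L3.6pl. Its L3.6pl values were low, from 5.47 to 6.17, all below the median gene at 6.30. Whether a fall could be seen at that level was not tested.

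The counts of called genes moved with single arrays. The 7 sterol enzymes called lower in FG became 3 without FG hypoxia replicate 1, 1 without FG hypoxia replicate 2, 4 without FG normoxia replicate 1 and 3 without FG normoxia replicate 3. The 6 called in L3.6pl became 3 and 2 without L3.6pl hypoxia replicates 1 and 2. The 3 fatty acid genes called in L3.6pl became 0 without any of L3.6pl hypoxia replicates 1 or 2 or L3.6pl normoxia replicates 1 or 2. Of the 10 genes called in each line, 3 passed without each of the 12 arrays in turn: FDPS, INSIG2 and ELOVL6 in FG, and ACAT2, FDPS and INSIG2 in L3.6pl. Read without a test, all 3 hypoxia arrays lay below all 3 normoxia arrays for 13 of 17 sterol enzymes and 4 of 7 fatty acid genes in FG. The same held for 11 of 17 and 5 of 7 in L3.6pl. Among all genes such a layout was found for 17.1% in FG and 12.8% in L3.6pl.

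Normoxia replicate 1 was high for these genes in both lines, so the comparison was repeated without both such arrays. FG normoxia replicate 1 exceeded the mean of the other 2 arrays of its group in 27 of 30 genes, by a median of 0.82 on the log2 scale, and L3.6pl normoxia replicate 1 in 28 of 30, by 0.87. Over all genes the median gaps were -0.02 and -0.03. The widest gaps were 1.85 for ACSS2 in FG and 1.89 for INSIG1 in L3.6pl. Hypoxia replicate 3 was also above the other hypoxia arrays for most of the set, in 25 of 30 genes in FG (median 0.49) and 26 of 30 in L3.6pl (median 0.42), against medians of 0.04 and 0.12 over all genes.

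Without both normoxia replicates 1, the branch medians moved toward 0 and stayed negative. Proliferation genes on the arrays left also averaged lower in hypoxia than in normoxia in both lines, without overlap. The sterol enzymes had medians of -0.79 in FG and -0.74 in L3.6pl, and the fatty acid genes -0.56 and -1.02. In FG, 8 of 30 genes were then called lower, against 6.95% of all genes. LSS (-0.82; limma adjusted p = 0.014), SQLE (-1.25; 0.0413) and ACACA (-0.74; 0.0403) passed, while IDI1 (0.0536), TM7SF2 (0.0529), NSDHL (0.106) and EBP (0.0597) did not. In L3.6pl, 12 of 30 were called lower, against 5.65% of all genes. The 9 earlier calls were kept there, and DHCR7 (-1.11; limma adjusted p = 0.0123), STARD4 (-1.10; 0.0198) and FASN (-1.32; 0.0128) were added. INSIG2 was called higher in both lines (limma adjusted p = 0.0118 in FG and 0.00952 in L3.6pl), against 4.69% and 5.29% of all genes. Without those arrays and L3.6pl hypoxia replicate 3, the 3 with the largest ACTB 3′ excess, 14 genes were called lower in FG, against 12.5% of all genes, and 15 in L3.6pl, against 13.2%. INSIG2 was called higher in both, against 7.06% and 7.89% of all genes. That set of arrays was chosen after the data were seen.

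The next comparison asked how the lines differed within each oxygen condition. L3.6pl had lower levels than FG for 5 of 30 genes in normoxia, against 5.54% of all genes, and for 6 in hypoxia, against 6.72%, shares of the set that lie above those of all genes. No gene of the set was called higher in L3.6pl, against 5.16% and 10.0% of all genes. At an unadjusted p below 0.05 in limma the counts of higher genes were 0 in normoxia and 1 in hypoxia. Those unadjusted counts are given without the share of all genes and are not read as a result. The median difference over the set was -0.51 in normoxia and -0.62 in hypoxia, against 0.02 over all genes in each.

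FADS2 and SC5D separated the lines in both conditions. FADS2 had 8.94, 7.60 and 7.92 in FG normoxia and 7.18, 6.86 and 7.61 in FG hypoxia, against 5.88, 5.47 and 6.17 in L3.6pl normoxia and 5.75, 5.93 and 5.90 in L3.6pl hypoxia. All L3.6pl values were below every FG value, and also below 6.30, the level used in an alternative as a filter on dim genes. The difference was -2.31 ± 0.316, or 4.96-fold lower in L3.6pl, in normoxia (limma adjusted p = 0.000915) and -1.36 ± 0.316 in hypoxia (limma adjusted p = 0.0136). SC5D, the desaturase of the sterol ring, had 11.6, 10.7 and 10.9 in FG normoxia and 9.95, 10.1 and 10.8 in FG hypoxia, against 9.88, 8.94 and 9.09 in L3.6pl normoxia and 8.39, 8.42 and 8.95 in L3.6pl hypoxia. Again every L3.6pl array lay below every FG array. The differences were -1.77 ± 0.332 (limma adjusted p = 0.0062) and -1.71 ± 0.332 (limma adjusted p = 0.00507), and the calls of both genes were kept without any single array.

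Other calls between the lines were narrower. In normoxia GGPS1 was lower in L3.6pl by a difference of -0.69 (limma adjusted p = 0.0265), NSDHL of -0.79 (0.0371) and HSD17B7 of -0.76 (0.0438). GGPS1 lost its call without any of the 6 normoxia arrays (0.0525 to 0.111). NSDHL lost it without any normoxia array but FG replicate 2, or without hypoxia replicate 1 of either line (0.0538 to 0.141). HSD17B7 lost it without FG normoxia 1 or 3, L3.6pl normoxia 2 or 3, FG hypoxia 1 or L3.6pl hypoxia 1 or 2 (0.0582 to 0.166). In hypoxia ACAT2 was lower by -1.33 ± 0.289 (limma adjusted p = 0.00937), a call kept without any single array. SQLE differed by -1.86 (0.0167), IDI1 by -1.24 (0.0343) and HSD17B7 by -0.74 (0.0354) there. SQLE lost its call without FG hypoxia 3 or L3.6pl hypoxia 1 or 2 (0.0567 to 0.0633), IDI1 without these or FG hypoxia 1 (0.0737 to 0.114), and HSD17B7 without any hypoxia array but FG replicate 2 (0.0613 to 0.111). With the mean of all its probe sets IDI1 differed by -0.52 and did not pass (0.152). FADS2 did pass with that mean, at -1.42 in normoxia and -0.75 in hypoxia (limma adjusted p = 0.00149 and 0.0311). In normoxia, NSDHL did not pass with that mean (0.054), and neither NSDHL (0.121) nor GGPS1 (0.0889) passed without both normoxia replicates 1. HSD17B7 did not pass there with an intensity trend and robust moderation (0.0542).

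**Figure D5:**
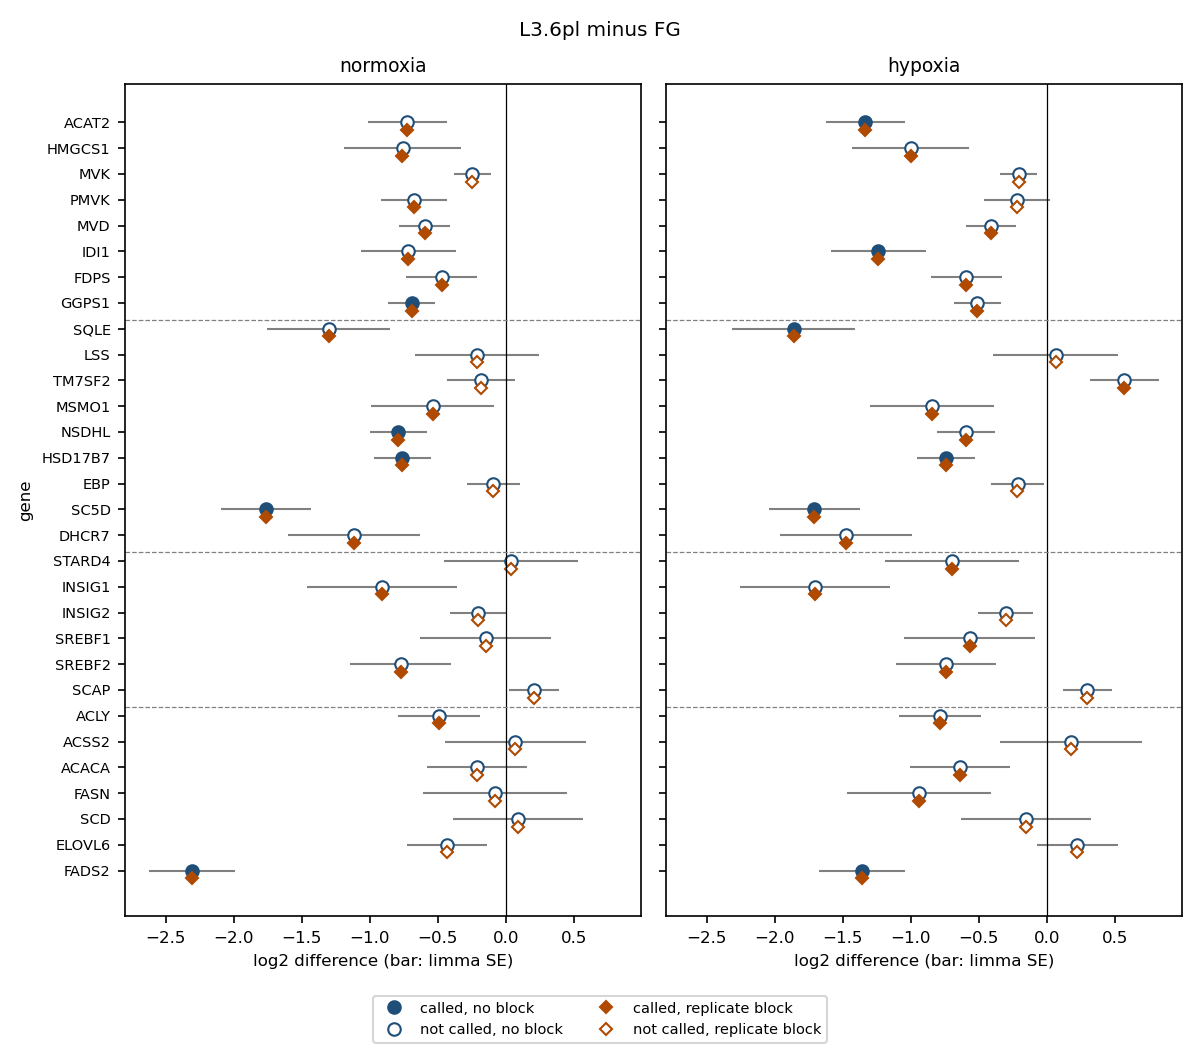
Log2 difference of L3.6pl minus FG (x axis) for each of 30 genes (y axis, dashed lines between branches) in normoxia and in hypoxia. Circles show the model without a block, with limma's standard error, diamonds the same differences with replicate number as a block within each oxygen condition, and filled symbols passed an adjusted p below 0.05. SC5D and FADS2 are filled under both models in both panels, and TM7SF2 in hypoxia is the only filled symbol to the right of 0.

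Same-numbered arrays of both lines deviated together within an oxygen condition, so the lines were also compared with replicate number as a block within each condition, an alternative added after the data were seen. With this replicate block the differences are the same and their errors smaller: 17 of 30 genes were called lower in L3.6pl in normoxia, against 10.9% of all genes, and 20 in hypoxia, against 12.1%. The 17 included 13 of 17 sterol enzymes, INSIG1, SREBF2, ACLY and FADS2. The 20 included 12 sterol enzymes, 4 sensing and transport genes (STARD4, INSIG1, SREBF1 and SREBF2) and ACLY, ACACA, FASN and FADS2. TM7SF2 was called higher in L3.6pl in hypoxia (0.57; limma adjusted p = 0.00348), against 17.9% of all genes. In the same paired fit the limma adjusted p of SC5D was 1.13e-05 in normoxia and 9.6e-06 in hypoxia, and that of INSIG1, whose differences were -0.91 and -1.71, was 0.00201 and 5.72e-05. Without both normoxia replicates 1 and without the block, 6 genes were called lower in normoxia (SQLE, HSD17B7, SC5D, DHCR7, SREBF2 and FADS2; 4.15% of all genes) and 13 in hypoxia (8.4% of all genes). The arrays compared in hypoxia are the same there, so only the shared estimate of spread differs.

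The last comparison tested whether the hypoxia difference itself differed between the lines. No gene of the set was called in this interaction, against 0.0253% of all genes, and 0 of 30 had an unadjusted p below 0.05 in limma. That unadjusted count too is given without the share of all genes. The most positive values were 0.95 ± 0.446 for FADS2 (limma adjusted p = 0.705) and 0.75 ± 0.356 for TM7SF2 (limma adjusted p = 0.712). FADS2 had a negative difference in FG and one near 0 in L3.6pl, where all its values lay below 6.30. The most negative values of the interaction were -0.86 ± 0.747 for FASN and -0.80 ± 0.781 for INSIG1. ACAT2 had -0.61 ± 0.409, and these 3 genes had the more negative difference in L3.6pl. With the replicate block within oxygen, TM7SF2 was called (limma adjusted p = 0.0338), against 3.55% of all genes, and ACAT2, FASN and INSIG1 had 0.0693, 0.0596 and 0.0663. A p that misses the threshold does not show that the lines respond alike.

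Several genes had more than 1 probe set, and these did not always move together. The 4 probe sets of SQLE all gave negative differences, from -1.68 to -0.52 in FG and from -2.42 to -1.09 in L3.6pl, and the 3 of ACLY lay between -1.05 and -0.87 in FG and between -1.42 and -1.09 in L3.6pl. The 3 of ELOVL6 ran from -2.05 to -1.29 in FG and from -1.72 to -0.69 in L3.6pl. For IDI1, 2 of 4 probe sets gave no decrease in L3.6pl (0.01 each), both with mean log2 intensities under 7. The second probe set of FASN, dim at 5.48, gave -0.05 in FG and 0.16 in L3.6pl, and the second of ACACA gave -0.02 in FG and -0.62 in L3.6pl. One probe set of SREBF2 was higher in FG hypoxia by 0.89 (limma adjusted p over all probe sets = 0.015) while the other 2 had -0.75 and -0.29, and 1 of the 3 of INSIG1 had 0.26 there. None of the other 3 probe sets of EBP passed in either line (-0.57 to -0.09 in FG and -0.58 to -0.14 in L3.6pl). For SCD, 2 of the 4 probe sets gave positive differences in FG (0.26 and 0.20). Probe sets not used for their gene could also pass where the used one did not. In FG this held for 2 of the 4 of MVK (-0.86 and -0.44; limma adjusted p over all probe sets = 0.0064 and 0.0112), the second of SC5D (-1.36; 0.0105) and 1 of LSS (-1.40; 0.0448). In L3.6pl it held for 1 of MVK (-0.80; 0.015). These probe sets of MVK and SC5D were dim, with mean log2 intensities below 6.30. They lay at 6.22 and 5.12 for MVK, in the order given for FG, and at 5.14 for SC5D. The values of genes whose probe sets disagree are uncertain in that respect.

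Other genes of the 2 pathways, from lists drawn up by function, had medians nearer to 0 than the synthesis genes. Of 25 further genes of sterol handling, 21 were measured, 5 fell and 1 rose in FG, and 1 fell in L3.6pl, with medians of -0.49 and -0.17. Among all genes, 6.47% were called lower and 4.24% higher in FG, and 2.97% lower in L3.6pl. A single call is not read here as a result about the list. LBR, which carries a sterol reductase domain in the nuclear envelope, had 10.7, 10.8 and 10.8 in FG normoxia and 9.03, 8.92 and 9.49 in FG hypoxia, a 3.04-fold fall (limma adjusted p = 0.000422). In L3.6pl LBR had 10.0, 10.2 and 9.91 against 9.21, 9.29 and 9.76, without overlap, and a difference of -0.62 ± 0.172 (limma adjusted p = 0.056) that passed without FG hypoxia replicate 3 (0.0308) or L3.6pl hypoxia replicate 3 (0.0102). LBR moved in FG together with TM7SF2, which catalyses the same reduction, though the difference between lines was not called for either without a block (limma adjusted p = 0.277 for LBR). With the replicate block within oxygen that difference was called for LBR too (0.98; limma adjusted p = 0.0125). TMEM97, a sterol-responsive membrane protein, fell in both lines, by 0.90 in FG (limma adjusted p = 0.0242) and by 1.24 in L3.6pl (0.00743), and its FG call ended without FG hypoxia 1 or 2 (0.065 and 0.0947) and with cyclic loess (0.052). ERLIN2 and FAF2, both of the machinery that degrades sterol enzymes, fell in FG by 0.80 and 0.72 (limma adjusted p = 0.00956 and 0.00803). MBTPS1 was the fifth gene that fell in FG and MYLIP the one that rose, both named after their values were seen. FNTA and NPC2, of highest mean intensity among those that did not pass, had 0.18 and -0.16 in FG and 0.47 and -0.21 in L3.6pl. In L3.6pl FNTA passed without FG normoxia replicate 1 (limma adjusted p = 0.0409) and without both normoxia replicates 1 (0.0417).

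Of 28 further genes of fatty acid and glycerolipid metabolism, 25 were measured, 4 fell in FG and 5 fell and 2 rose in L3.6pl, with medians of -0.21 and -0.14. The shares of all genes were 6.47% lower in FG, and 2.97% lower and 3.89% higher in L3.6pl. MID1IP1, an activator of acetyl-CoA carboxylase, fell in both lines. Its values were 8.06, 7.17 and 7.49 in FG normoxia and 6.47, 6.30 and 6.66 in FG hypoxia, and 8.38, 7.83 and 7.88 against 6.82, 6.92 and 7.08 in L3.6pl. The falls were 2.14-fold (limma adjusted p = 0.00949) and 2.13-fold (limma adjusted p = 0.014), the latter lost without L3.6pl hypoxia 1 or 2 (0.0522 and 0.0564). ELOVL5, the elongase of polyunsaturated chains, fell by 0.77 in L3.6pl (limma adjusted p = 0.013), a call lost without L3.6pl hypoxia 2 or L3.6pl normoxia 2 (0.0624 and 0.0541) and with the mean of all its probe sets (-0.30; 0.0671). PPARG, a lipid-responsive nuclear receptor, rose 2.68-fold in L3.6pl (limma adjusted p = 0.00455) from 7.57, 7.33 and 7.80 to 8.62, 9.10 and 9.26, and had 0.23 ± 0.225 in FG, where its values overlapped. The difference between lines was called with the replicate block within oxygen (1.19; limma adjusted p = 0.00713) and not without it (0.313). LPIN2, a phosphatidate phosphatase, rose 2.55-fold in L3.6pl (limma adjusted p = 0.00901). HSD17B12 and ME1, of highest mean intensity among those that did not pass, had -0.50 and -0.04 in FG and -0.49 and -0.35 in L3.6pl. DGAT2, GPAM and HACD3 also fell in FG, and ACSL1, CPT1A and HACD3 in L3.6pl, named after their values were seen.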

How the data were processed

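Total RNA was measured on 12 Affymetrix arrays with 54675 probe sets. The authors deposited linear intensities normalized by RMA, per the submitters' processing notes, and log2 was taken here. Median intensities of the arrays ran from 39.1 to 41.4. Probe sets annotated with exactly 1 gene (41091 probe sets; 1801 had several and 11721 none) were used, 1 per gene, the one with the highest mean over the arrays, giving 19775 genes. Their levels were fitted over the 4 groups with limma 3.58.1 in R 4.3.3 (8 residual degrees of freedom), with Benjamini-Hochberg adjustment over all genes and a threshold of 0.05. The fit was tested on simulated data.

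The genes and lists were chosen with earlier results of these data known. Genes outside the set were named by a rule: from each list, at most 4 genes called in hypoxia in either line, taken by smallest adjusted p, and at most 2 uncalled ones, taken by highest mean. Same-numbered arrays of the 2 lines deviated together from their group means (r = 0.734, 0.528 and 0.675 in normoxia and 0.358, 0.444 and 0.462 in hypoxia), each best with its own number, so blocked values are given for the comparison of lines. The number of arrays limits the precision, and signal over background was not used here. An exact test of 3 arrays against 3 cannot go below p = 0.1 and was not used. Alternatives covered normalization, probe set choice, filters, array weights, blocks and arrays left out.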

Additional observations from a re-analysis of the deposited data

How the results depend on the processing

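No called gene of the set turned its direction under any alternative run, and counts of genes called lower moved with the spread. The 7 sterol enzymes in FG ranged from 1 to 10 with 1 array left out, and were 12 with the replicate block or array weights, 11 without the 3 arrays of largest ACTB 3′ excess and 1 at an adjusted p below 0.01. The 2 fatty acid genes in FG ranged from 1 to 3, and were 4 with the replicate block and 1 with cyclic loess, median centring or the threshold of 0.01. In L3.6pl the 6 sterol enzymes ranged from 2 to 9 and were 10 with weights and 2 at 0.01, and the 3 fatty acid genes ranged from 0 to 4 and were 0 at 0.01. Between the lines in normoxia, 5 genes ranged from 2 to 6, and were 8 with the replicate block, 17 with the block within oxygen, 15 with weights, 10 without the 3 arrays and 2 at 0.01. In hypoxia, 6 ranged from 3 to 9, and were 13 without both normoxia replicates 1, 10 with median centring or the mean of all probe sets, 11 with the replicate block, 20 with it within oxygen, 12 with weights, 18 without the 3 arrays and 2 at 0.01. The interaction count of 0 stayed 0 with 1 array left out and was 1 with the block within oxygen. The cause of these shifts was not tested. Calls over all genes moved with the setting too. For hypoxia in FG, 6.47% of all genes were called lower, and 12.5% without the 3 arrays. Between the lines in normoxia it was 5.54%, and 10.9% with the block within oxygen. A count in this section is therefore not read as a result about the set. Across oxygen, replicates 1 and 2 did not pair by number (r from -0.239 to -0.037). Replicates 3 did, each best with its own number (r from 0.244 to 0.425). For the hypoxia comparisons the plain block therefore shares only a number for replicates 1 and 2. The block within oxygen and the omission of the 3 arrays were added after the data were seen.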
